A study of Mus musculus with 143 samples.

Results

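Among Gpnmb+Clec7a+ microglia of the mouse cerebellum, 54 of 143 cells held reads of the matrix-degrading protease genes Plau or Mmp12 at a CPM of 10 or more (counts per 1000000 gene counts), 37.8% of the cells (exact 95% interval 29.8 to 46.2%). They were compared with the 88 cells that had 0 counts of both genes. A single cell, with 1 Plau count and a CPM of 1.08, lay between and was left out. Reads were counted per cell in a pool of wild-type male C57BL6N mice at postnatal day 7, and cells were sorted singly on low CD45, CD11b, Gpnmb and Clec7a into wells for Smart-seq2, which reads whole transcripts and adds no molecular identifiers. The cells lie on plate 1 with 95 cells and plate 2 with 48 cells, which are technical batches, and total counts per cell ran from 271190 to 1226521. Every cell carries the same genotype, age and gate, so the cells are 1 sample, and no test was run between the groups. Intervals cover counting error only. Those of pooled CPM treat each read as independent and leave out the spread over cells. Several reads can stem from 1 molecule, and a pool hides how animals differ. The cells were selected on their measured Plau and Mmp12 CPM, so those values are a description, and so are the other genes of the same cells.

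Plau encodes urokinase-type plasminogen activator, a secreted serine protease that cuts plasminogen to plasmin. Plasmin degrades fibrin and other matrix proteins and can activate metalloprotease precursors, and the receptor Plaur holds urokinase at the cell surface while serpins inhibit it. Mmp12 encodes macrophage elastase, a metalloprotease of macrophages that cuts elastin and other matrix proteins. Microglia in developing white matter take up a state that is high in Spp1, Gpnmb, Clec7a and Igf1 and low in homeostatic genes such as P2ry12.

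Plau lies on chr14:20836660-20843385 and Mmp12 on chr9:7344381-7369499, both on the plus strand of GRCm38 in the GENCODE M21 annotation. Plaur, the receptor gene with a higher level in the expressing cells, lies on chr7:24462484-24475968 on the plus strand. The stretches below are shown because Mmp12 is a gene that chose the cells and Plaur, the receptor of urokinase, was the gene of the plasminogen system that differed most. Each runs from 150 to 21 bases before a RefSeq transcription start (GRCm38.p6, plus strand, 5′ to 3′), and capitals mark matches to the AP-1 motif TGANTCA or the PU.1 motif GAGGAAGT on either strand. Mmp12 has 2 start sites in that table, and Plau, Ccl4, Ccl2 and Atp6v0d2 were not matched in it.
Mmp12 first start, chr9:7344247-7344376: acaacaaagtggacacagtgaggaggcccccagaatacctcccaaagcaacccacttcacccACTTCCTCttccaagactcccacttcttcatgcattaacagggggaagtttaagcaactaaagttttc
Mmp12 second start, chr9:7347224-7347353: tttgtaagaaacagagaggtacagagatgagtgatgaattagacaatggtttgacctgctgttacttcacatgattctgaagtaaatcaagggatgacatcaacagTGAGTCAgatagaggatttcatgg
Plaur, chr7:24462333-24462462: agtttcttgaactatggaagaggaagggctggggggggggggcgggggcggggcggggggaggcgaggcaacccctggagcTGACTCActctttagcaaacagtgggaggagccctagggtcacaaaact
The first Mmp12 stretch holds the reverse complement of the PU.1 motif from base -88, and the second holds an AP-1 match from base -44. The Plaur stretch holds an AP-1 match from base -69. Among 32851 mouse promoter windows of 300 bases, from 250 before the start to 50 from it, 7.81% hold the AP-1 motif and 3.20% the PU.1 motif. The windows of Ccl3, Atf3, Csf1, Lgals3 and Sall1 hold no match to either motif. The NF-kB motif (GGG and CC with any 5 bases between, on either strand) and the E-box CACGTG, held by 50.8% and 7.15% of all windows, were also searched: the first Mmp12 window and the Plaur window hold NF-kB matches, the second Mmp12 window none, and the windows of these 7 genes hold no E-box.

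Plau was at 10 CPM or more in 46 cells (32.2%) and Mmp12 in 18 cells (12.6%, interval 7.63 to 19.2%). Plau alone was at that level in 36 cells, Mmp12 alone in 8 and both in 10. Plau CPM in its 46 cells ran from 11.3 over a median of 231 to 5643, and the highest cell alone held 29% of the summed Plau CPM of those cells. Mmp12 CPM in its 18 cells ran from 21.7 over a median of 230 to 1180. Counts were not divided by length, so the levels of the genes are not compared with each other. The share of expressing cells was 36 of 95 on plate 1 (37.9%) and 18 of 48 on plate 2 (37.5%), but Mmp12 was at the limit in 15 cells of plate 1 and 3 of plate 2. Few cells lay near the limit: the 5 expressing cells nearest to it had a larger CPM of 11.9, 12.8, 18.6, 80.7 and 86.3.

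**Figure D1:**
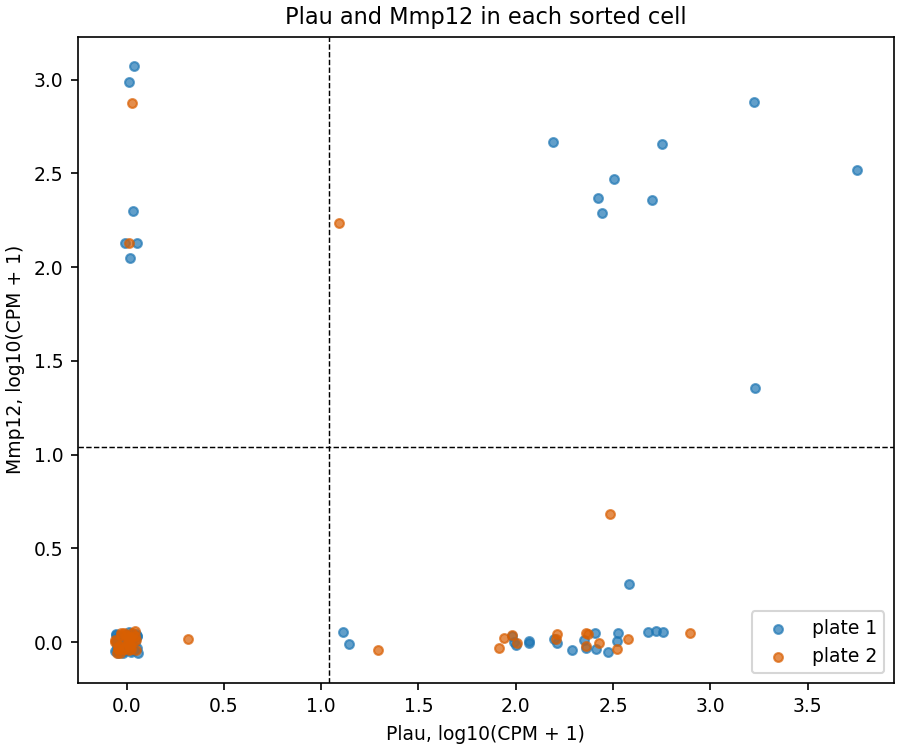
Each point is a sorted cell, with Plau on the x axis and Mmp12 on the y axis as log10(CPM + 1) and the plates in different colours; dashed lines mark 10 CPM. Of the 143 cells, 10 lie above both lines, 36 above the Plau line alone and 8 above the Mmp12 line alone.

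Mmp12 was found in 10 of the 46 cells with Plau (21.7%, interval 10.9 to 36.4%) and in 8 of the other 97 (8.25%, interval 3.63 to 15.6%). The product of the separate shares would give 5.79 cells with both. The difference was seen on plate 1, where 9 of 30 cells with Plau (30%) and 6 of 65 without (9.23%) had Mmp12. On plate 2 the shares were 1 of 16 and 2 of 32, both 6.25%. Over all 143 cells, which share the pool and differ in depth, Spearman's rho between the CPM of the genes was 0.29 as a description, with 0.37 on plate 1 and 0.067 on plate 2.

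The expressing cells carried the markers of microglia. All 10 microglia identity genes were read in them, with Cx3cr1 in 53 of 54 cells and Csf1r, Fcrls, Trem2, Tyrobp and C1qa in all 54. On both plates 2 of the 10 were higher and 5 lower, against 27.2% and 27.4% of all genes tested. The 10 had a median log2 ratio of -0.09 (-0.21 on plate 1 and -0.01 on plate 2). Among the lower ones were Aif1 (-0.76 and -0.90) and Cx3cr1 (-0.52 and -0.37). The summed CPM of the 10 genes per cell ran from 13490 to 36016 in the expressing cells and from 8656 to 37938 in the cells with neither gene. The monocyte marker Ly6c2 and the border-associated macrophage markers Cd163, Lyve1 and Cd209f had 0 reads in all 143 cells. That allows a share of cells with a read of up to 2.1% by the limit of 3 counts and 2.55% by the exact interval, and a cell can express a gene without yielding a read. The border-associated macrophage list summed to a median of 579 CPM in the expressing cells (range 0 to 2606) and 756 CPM in the others (range 0 to 3727), and the monocyte list had a median of 0 CPM in both (highest 865 and 475 CPM). Fn1, fibronectin, the gene of the monocyte list that passed the filter on low genes, was at 73.9 against 38.7 CPM (log2 ratio 0.41 on plate 1 and 2.54 on plate 2) and was read in 9 of 54 and 13 of 88 cells. Of the border-associated macrophage list, Mrc1 was read in 27 of 54 expressing cells and 53 of 88 others, Stab1 in 43 and 81, and Folr2 in 39 and 66. Csf3r, Cnp and Cd79b, listed as markers of other cells, were also read in more than 20% of expressing cells (26, 22 and 16 cells). Ms4a7, a border-associated macrophage marker, was lower in the expressing cells, at 12.4 against 43 CPM.

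Expressing cells had a higher median number of detected genes. It was 3419 genes per cell against 3162 in the others, 3447 against 3112 on plate 1 and 3404 against 3255 on plate 2. With each cell thinned to 250000 gene counts and the groups formed again on the thinned counts (53 and 89 cells), the medians were 3300 and 3101. Gene counts per spike-in count, a measure of RNA per cell, had medians of 26.4 and 23.8. The ranges of the groups overlapped widely in both measures. The part of detection and RNA content in the differences below was not tested. Scaling to spike-ins in place of gene counts moved the median log2 ratio of pooled CPM + 1 over all genes tested from 0.00 to 0.24, and the list medians below moved up with it.

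**Figure D2:**
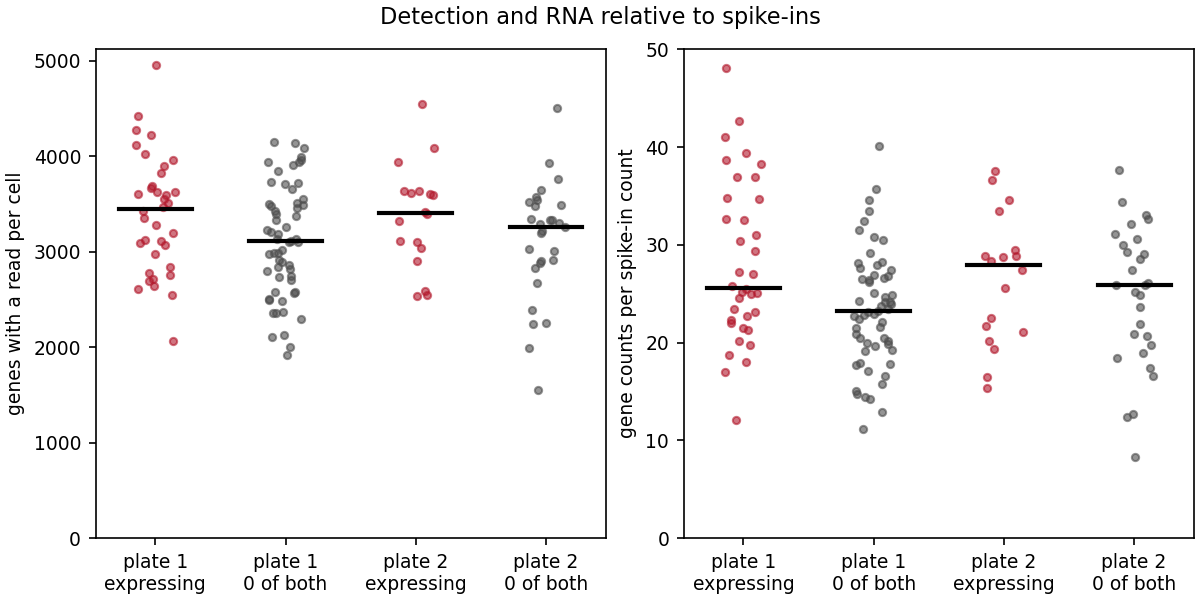
Points are cells on each plate, in expressing cells and cells with 0 counts of both genes, and black bars are medians; the y axes give genes with a read per cell and gene counts per spike-in count. The medians of detected genes were 3447 and 3112 on plate 1 and 3404 and 3255 on plate 2, and the groups overlap.

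Of the genes that act with urokinase, the receptor Plaur stood out. Its CPM in the 54 expressing cells ran from 0 over a median of 350 to 1732, and in the 88 others from 0 over a median of 59.9 to 1685. Most expressing cells were high, but the ranges overlapped almost fully. Pooled CPM, the summed counts over the summed gene counts, was 414 (exact Poisson interval 408 to 420) against 176 (173 to 179), or 399 against 154 on plate 1 and 449 against 224 on plate 2. Reads of Plaur were found in 47 of 54 expressing cells (87%, interval 75.1 to 94.6%) and in 54 of 88 others (61.4%, interval 50.4 to 71.6%). At 250000 counts per cell the shares were 86.8% and 59.6%.

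The other plasminogen-binding and uptake proteins differed little. Of 7 such genes that passed the filter (pooled CPM of 10 or more and a read in at least 10% of the compared cells), 2 were higher on both plates, Plaur and Eno1, and 1 was lower, 5033414D02Rik, the older symbol of the plasminogen receptor Plgrkt. Over all genes tested, 27.2% were higher on both plates and 27.4% lower, so the count of higher genes is near that background. Eno1, enolase, had a log2 ratio of pooled CPM + 1 of 0.41 (0.51 on plate 1 and 0.16 on plate 2). Anxa2, which binds plasminogen at the surface, had 0.19 (0.34 and -0.19), and Lrp1, which takes up urokinase bound to its inhibitors, had -0.02 (0.08 and -0.22). Of the inhibitors, Serpine2 (protease nexin 1, which blocks urokinase and thrombin) was read in every compared cell at 2263 against 2087 CPM. The intracellular serpin Serpinb6a was at 142.8 against 111.4 CPM. The other activator Plat and the inhibitors Serpinb2 and Serpinf2 had 0 reads in the compared cells.

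Mmp12 was the only gene of 10 listed matrix metalloproteases read in more than 5 of the compared cells. Mmp2 and Mmp19 were read in 5 cells each, Mmp14 in 2 and Mmp13 in 1, and Mmp3, Mmp8, Mmp9, Mmp23 and Mmp25 in none. The inhibitor Timp2 was lower, with pooled CPM of 318 in the expressing cells and 455 in the others (log2 ratio -0.52, -0.45 on plate 1 and -0.68 on plate 2), though it was read in 52 of 54 and 85 of 88 cells. Timp1, Timp4 and Reck had 0 reads. Of the ADAM and ADAMTS proteases, which shed surface proteins or cut matrix, 6 passed the filter. Adam15 was higher on both plates (0.47) and so was Adamts1 (1.24), which was read in 15 cells. Adam17, which releases tumour necrosis factor, had a log2 ratio of -0.58 (-0.60 and -0.54), and Adam10 one of -0.27 (-0.32 and -0.16).

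Across the genes that passed the filter, few differences repeated on the plates. Of 7184 genes other than Plau and Mmp12, 1.6% were at least 2-fold higher on each plate and 186 (2.59%) at least 2-fold lower. However, 164 genes passed 2-fold in opposite directions on the plates, and the log2 ratios of the plates correlated with a Pearson r of 0.12 over genes, which are not independent. Called genes were sparse: the higher ones were read in a median of 20.4% of the cells and the lower ones in 16.9%, against 33.1% for all genes tested. The median log2 ratio over all genes was 0.00. Among the 2199 genes read in at least 50% of the cells, a limit added after seeing the data, 8 were higher on both plates (0.364%) and 6 lower (0.273%), 0 passed in opposite directions, and r was 0.29. These 14 genes are described first, since they were read in many cells. Their pooled ratios can still rest on a few high cells: 1 cell held 23% of the Furin counts in the expressing cells.

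**Figure D3:**
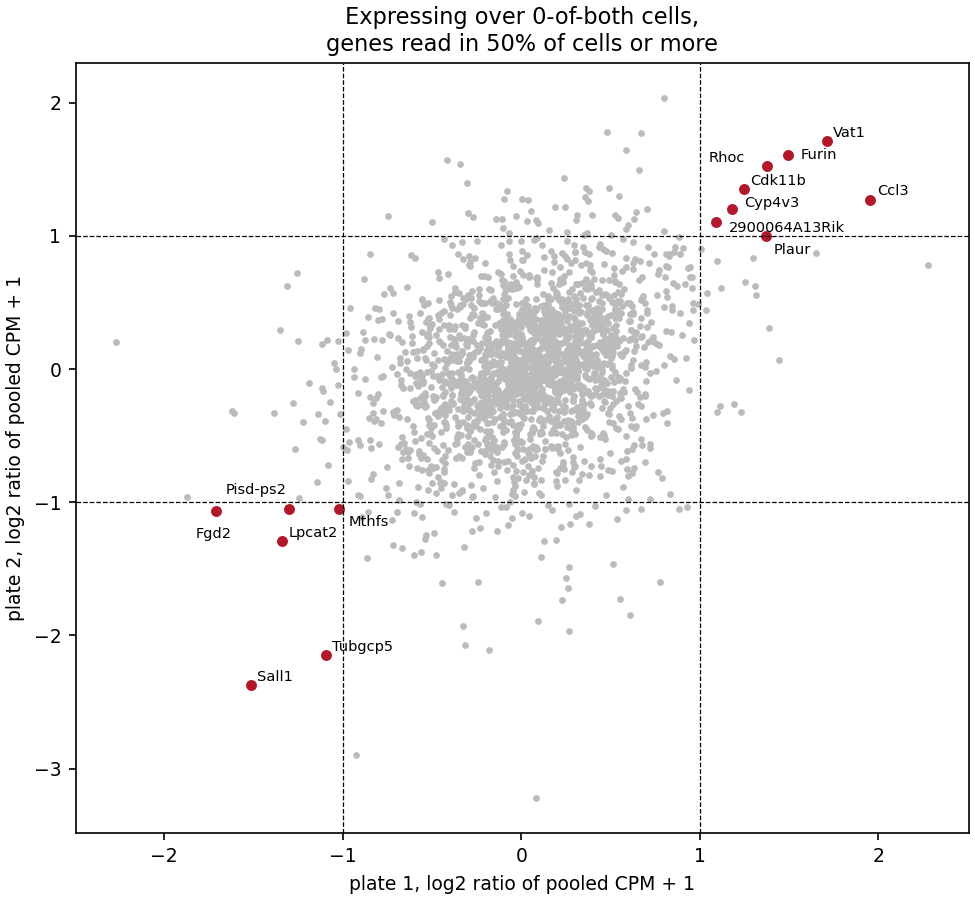
Each point is a gene read in 50% of the cells or more, with the log2 ratio of pooled CPM + 1 (expressing cells over cells with 0 counts of both genes) on plate 1 (x axis) and plate 2 (y axis); dashed lines mark 2-fold. Red points are the 8 genes higher and 6 genes lower by 2-fold on each plate, and 0 genes lie past 2-fold in opposite directions.

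Besides Plaur, the broadly read genes at a higher level were Ccl3, Vat1, Furin, Rhoc, Cdk11b, Cyp4v3 and 2900064A13Rik. Ccl3, a chemokine that draws monocytes and other leukocytes, ran from 0 over a median of 120.1 to 1300 CPM in the expressing cells and from 0 over a median of 0 to 572 CPM in the others. Its pooled CPM was 275 against 79.1 (log2 ratio 1.79, with 1.96 and 1.27 on the plates), and it was read in 72.2% against 43.2% of cells. Vat1, a vesicle membrane protein, was at 45 against 13 CPM, with the same ratio on both plates (1.71). Furin, the protease that cuts proproteins, was at 46.7 against 15.5 CPM, and its medians were 6.63 and 0. Rhoc, a small GTPase of the actin cytoskeleton, was at 144.5 against 53.3 CPM (medians 126.2 and 0) and was read in 42 of 54 against 42 of 88 cells. Cyp4v3, a fatty acid hydroxylase, had medians of 170 and 0 CPM and pooled CPM of 184 against 80.3. The kinase Cdk11b and the locus 2900064A13Rik had log2 ratios of 1.28 and 1.1. In each of these genes some cells without the protease reads were as high as most expressing cells.

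The broadly read genes at a lower level were Sall1, Fgd2, Lpcat2, Tubgcp5, Pisd-ps2 and Mthfs. Sall1, a transcription factor that maintains microglial identity, ran from 0 over a median of 0 to 225 CPM in the expressing cells and from 0 over a median of 91.6 to 1197 CPM in the others. Its pooled CPM was 41.9 (39.9 to 44) against 136.2 (133.3 to 139.1), with log2 ratios of -1.51 and -2.37 on the plates. It was read in 25 of 54 cells (46.3%) against 58 of 88 (65.9%), but on plate 2 the shares were close, 61.1% and 58.6%. Fgd2, an exchange factor for the GTPase Cdc42, was at 89.2 against 256 CPM (medians 0 and 222) and was read in 37% against 68.2% of cells. Lpcat2, an enzyme of phospholipid remodelling, was at 100.7 against 253 CPM (medians 19 and 197). The folate enzyme Mthfs (-1.03), the gamma-tubulin complex gene Tubgcp5 (-1.33) and the pseudogene Pisd-ps2 (-1.22), whose reads can be shared with its parent gene, followed. Tubgcp5 was read in similar shares of cells, 48.1% against 52.3%, with medians of 0 and 1.38 CPM.

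**Figure D4:**
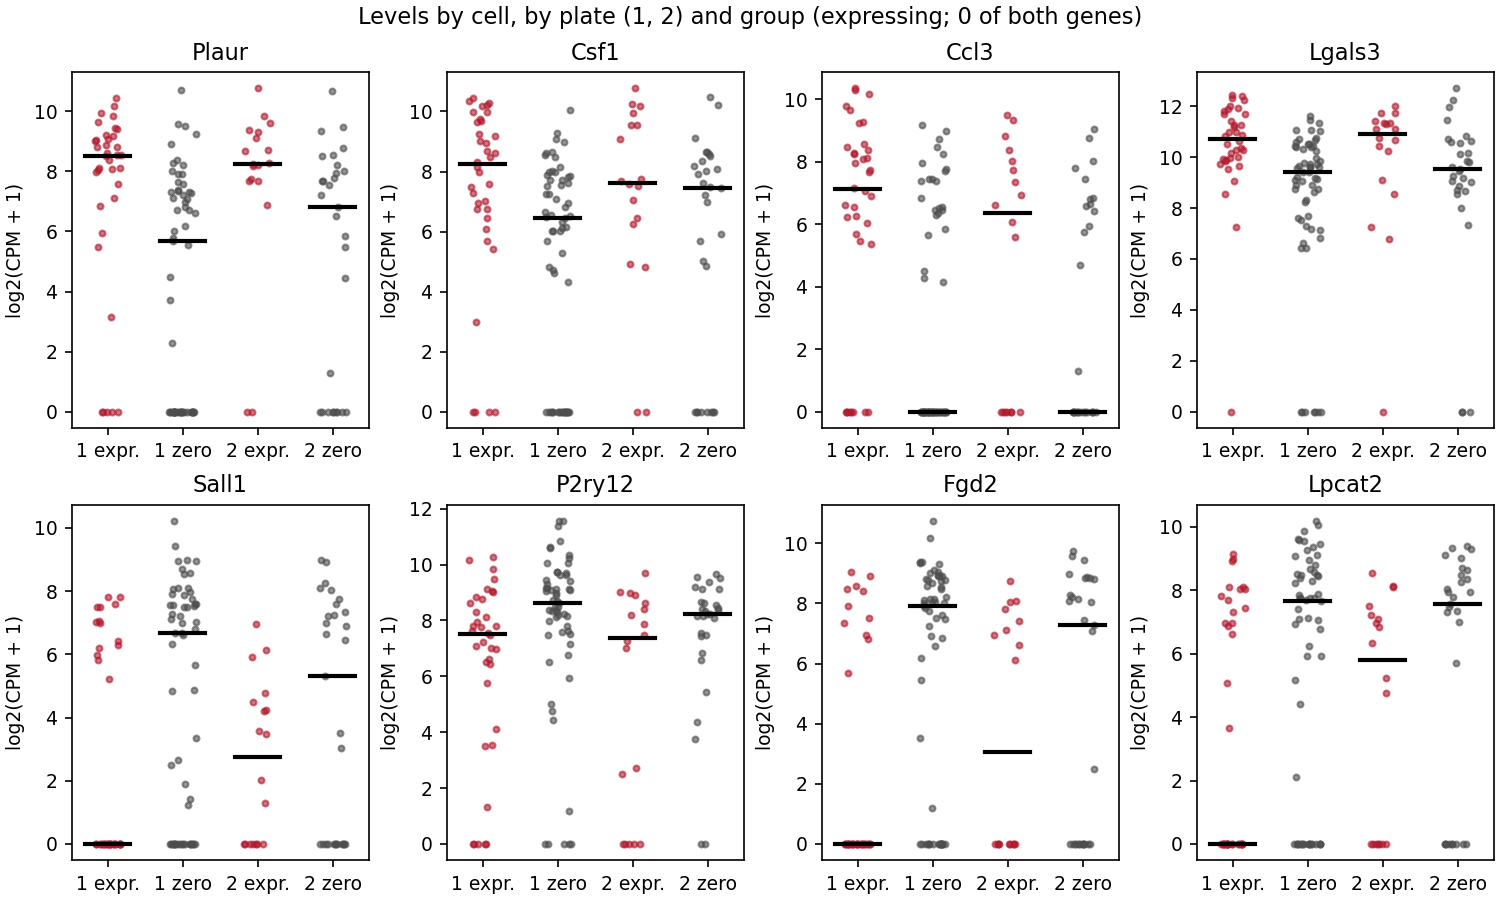
Points are cells and black bars medians, on the y axis as log2(CPM + 1), for Plaur, Csf1, Ccl3, Lgals3, Sall1, P2ry12, Fgd2 and Lpcat2, with plates 1 and 2 split into expressing cells and cells with 0 counts of both. The Plaur medians over both plates were 350 and 59.9 CPM, those of Fgd2 0 and 222 CPM, and points of the groups overlap in every panel.

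Chemokine genes were higher as a group. Of 19 listed chemokine and cytokine genes, 9 passed the filter. On both plates 7 of the 9 were higher and 0 lower, against 27.2% and 27.4% of all genes tested. The 9 genes had a median log2 ratio of 0.61 (0.63 on plate 1 and 0.67 on plate 2). Beside Ccl3, its neighbour Ccl4 was at 64.2 against 12.8 CPM and was read in 17 of 54 cells (31.5%) against 11 of 88 (12.5%). Ccl2, which draws monocytes through Ccr2, was at 104.7 against 25.9 CPM and was read in 21 of 54 against 17 of 88 cells. Ccl9 had pooled CPM of 920 against 467, with log2 ratios of 1.39 and 0.31, and Il1a was at 63.4 against 41.2 CPM. Ccl3 or Ccl4 at 10 CPM or more marked 77.8% of expressing cells and 45.5% of the others (80.6 and 44.1% on plate 1, 72.2 and 48.3% on plate 2).

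Genes of the phagocytic state of developing white matter and of disease were mostly higher, by small ratios. Of 25 such genes that passed the filter, 18 were higher on both plates and 4 lower, against 27.2% and 27.4% of all genes tested. The list had a median log2 ratio of 0.25 (0.27 and 0.12). With spike-in scaling, which moved the median of all genes to 0.24, the counts were 20 and 2 and the median 0.49. Csf1, a growth factor of microglia, ran from 0 over a median of 232 to 1743 CPM in the expressing cells and from 0 over a median of 92.1 to 1416 CPM in the others. Its pooled CPM was 456 against 179, with log2 ratios of 1.65 and 0.87. Lgals3, a galectin, had medians of 1755 and 695 CPM (log2 ratio 1.05, with 1.31 and 0.56). The lipase Lpl (0.73), the fatty acid binding protein Fabp5 (0.88) and Igf1 (0.54), a growth factor for neurons and oligodendrocytes, were higher on both plates. Of the genes used in the sort, Clec7a was at 461 against 313 CPM and Gpnmb at 4142 against 3929 CPM. Spp1, osteopontin, had a log2 ratio of 0.12. With the cycling classes left out, Gpnmb and Spp1 had log2 ratios of -0.10 and -0.02. Apoe (-0.34) and Axl (-0.86) were lower on both plates.

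Homeostatic genes were lower as a group. Of 21 that passed the filter, of 23 listed, 0 were higher on both plates and 15 lower. The shares over all genes tested were 27.2% and 27.4%. The list had a median log2 ratio of -0.41 (-0.52 and -0.27). P2ry12, a nucleotide receptor that guides microglial processes, had medians of 178 and 337 CPM and log2 ratios of -1.13 and -0.53. It was at 10 CPM or more in 75.9% against 90.9% of cells (83.3 and 89.8% on plate 1, 61.1 and 93.1% on plate 2). The orphan receptor Gpr34 was at 561 against 941 CPM, with close ratios on the plates (-0.75 and -0.73). Siglech was at 102.9 against 209 CPM (-1.22 and -0.40). Fcrls (0.00) and Cst3 (-0.02) hardly differed. With the cells of the S and G2/M classes left out, 10 of 22 homeostatic genes were lower on both plates and 2 higher. The median was then -0.24, with -0.30 on plate 1 and -0.04 on plate 2. In cells between the quartiles of detected genes, 12 of 21 were lower and 4 higher, with a median of -0.33 (-0.19 and -0.07). With spike-in scaling 10 of 21 were lower and 4 higher, with a median of -0.17.

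Among transcription factors of the AP-1, ETS and NF-kB families, Atf3, a stress-induced factor, was at 123.1 against 22.9 CPM (log2 ratios 2.45 and 2.19). It was read in 26 of 54 expressing cells (48.1%, interval 34.3 to 62.2%) and in 15 of 88 others (17%, interval 9.87 to 26.6%). Its highest values were 1002 and 400 CPM, and the median was 0 in both groups. Junb had a log2 ratio of 0.55, and Ets2, read in 4 and 14 cells, had -1.41. Of 11 such genes 4 were higher on both plates and 4 lower, against 27.2% and 27.4% of all genes tested. The list had a median of -0.05 whose sign changed with the settings. Btg2, an early-response gene that restrains proliferation, was lower at 13.6 against 62.6 CPM and was read in 6 of 54 against 30 of 88 cells.

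Ranked by the smaller of the ratios of the plates, the 15 leading genes at a higher level included Kifc3, Hilpda, Atf3, Nlrc3, Ccl4, Pibf1, Srpk3, Ccl2, Snx24, 2410004B18Rik, Igsf10, Slc39a2 and Vat1. Slc39a2, a zinc transporter, was the most widely read of them besides Vat1, at 276 against 78.8 CPM, in 31 of 54 against 24 of 88 cells. Hilpda, a lipid droplet protein, was read in 12 of 54 cells and 3 of 88. Some ratios rest on few cells: Srpk3 was read in 10 and 5 cells and Igsf10 in 7 and 8. For Igsf10, 1 cell held 50.4% of the counts in the expressing cells. Kifc3, Hilpda, Nlrc3, Pibf1, Srpk3, 2410004B18Rik and Igsf10 were under 10 CPM in the cells with neither gene. They passed the filter on low genes only through the expressing cells. The 15 leading genes at a lower level were Mettl7a1, Slamf6, 4930534B04Rik, AI316807, Mfng, Dusp28, Ptcd1, Bhlhb9, Kif15, Ect2, Zfp687, Scmh1, Shmt1, Zfp157 and Suv420h2. All 15 were under 10 CPM in the expressing cells and passed the filter only through the cells with neither gene. Several, such as Slamf6 and Kif15, had 0 reads in the expressing cells of plate 2, where the pseudocount shapes the ratio. Mfng, a glycosyltransferase that modifies Notch receptors, was at 5.99 against 62 CPM and was read in 5 of 54 cells (9.26%) against 32 of 88 (36.4%). Slamf6, an immune cell receptor, was read in 2 of 54 against 16 of 88 cells.

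Genes of energy metabolism and of the secretory pathway differed by small ratios. Of 14 glycolysis genes, 11 were higher on both plates and 0 lower, against 27.2% and 27.4% of all genes tested. The list had a median log2 ratio of 0.40 (0.35 and 0.29). The glucose transporter Slc2a1 led, at 123.7 against 44.2 CPM, read in 28 of 54 against 24 of 88 cells. Tpi1, an enzyme of the pathway, was at 1056 against 769 CPM, and Ldha, lactate dehydrogenase, at 2848 against 2213 CPM. Of 14 genes of the unfolded protein response, 10 were higher on both plates and 1 lower, with a median of 0.44 that was 0.10 on plate 2. With spike-in scaling, which moved the median of all genes to 0.24, the counts were 13 and 0 and the median 0.68. Hspa5, the main chaperone of the endoplasmic reticulum, was at 2057 against 1228 CPM (0.82 and 0.54), and Herpud1, of the degradation machinery there, at 103.6 against 57.8 CPM. The 9 cholesterol synthesis genes had a median of 0.73 with the plates pooled and 0.04 on plate 2. In all cells with Mmp12 at 10 CPM or more the list median was -0.29.

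Among genes of osteoclasts and cell fusion, Atp6v0d2, a proton pump subunit, was at 540 against 218 CPM (log2 ratios 1.46 and 1.04). At 10 CPM or more it was found in 36 of 54 expressing cells (66.7%, interval 52.5 to 78.9%) and 28 of 88 others (31.8%, interval 22.3 to 42.6%). Nfatc1, the main transcription factor of osteoclasts, was at 29.2 against 13.8 CPM, and the proton pump gene Tcirg1 at 331 against 251 CPM. Of the 7 genes of that list, 3 were higher on both plates and 1, Tnfrsf11a, lower. Their median log2 ratio was 0.38, with 0.44 on plate 1 and -0.07 on plate 2. Over all genes tested, 27.2% were higher on both plates and 27.4% lower. Of 16 genes of matrix ligands and adhesion, 8 were higher on both plates and 1 lower, with a median of 0.33. This did not hold in cells between the quartiles of detected genes (4 higher, 5 lower, median -0.06). Nor did it hold in all cells with Mmp12 at 10 CPM or more (5 and 5, median 0.07). Sdc4, a cell-surface proteoglycan, was at 398 against 203 CPM with log2 ratios of 1.01 and 0.90. Itgax, an integrin subunit, was at 10 CPM or more in 68.5% against 42% of cells, and the integrin Itgb5 was lower, at 129.1 against 227 CPM.

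Mitotic genes were lower in the expressing cells. Of 28 G2/M genes that passed the filter, 0 were higher on both plates and 21 lower, against 27.2% and 27.4% of all genes tested. The list had a median log2 ratio of -0.84 (-0.83 and -1.30). The proliferation gene Mki67 was at 72.3 against 183 CPM and was read in 9 of 54 against 24 of 88 cells, and the cyclin Ccnb2 at 45.4 against 125.9 CPM in 7 and 27 cells. Cells with at least 8 of 31 G2/M genes at 10 CPM or more, called the G2/M class, made up 7 of 54 expressing cells (13%, interval 5.37 to 24.9%) and 21 of 88 others (23.9%, interval 15.4 to 34.1%). Cells outside it with at least 6 of 24 S-phase genes, the S class, made up 18 of 54 (33.3%) and 20 of 88 (22.7%). The pooled levels of the S-phase genes did not follow that order: of 24, 1 was higher on both plates and 11 lower, with a median of -0.11 (-0.10 and -0.66). Together the classes held 46.3% and 46.6% of cells. The part of the cell cycle in the other differences was not tested, but values without it follow. Without both classes, 29 and 47 cells remained: Plaur had a log2 ratio of 1.52 (1.98 and 1.13), Atf3 2.57, Ccl3 1.77 (2.25 and 0.71), Csf1 1.67 and Sall1 -2.03 (-1.86 and -2.62).

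**Figure D5:**
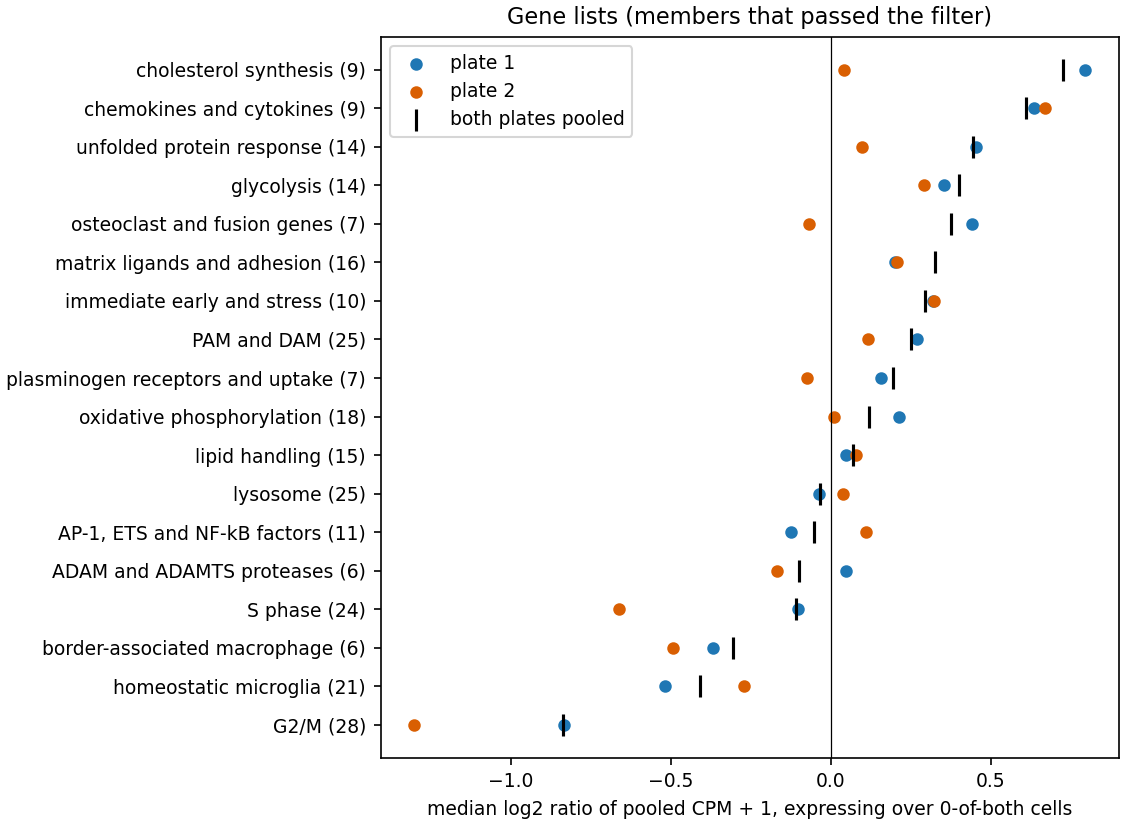
Each row is a gene list with at least 5 members that passed the filter (their number in brackets). The microglia identity list is not drawn. The x axis gives the median log2 ratio of pooled CPM + 1, as dots for plate 1 and plate 2 and a bar for both pooled. The G2/M list is lowest at -0.84 and the homeostatic list is at -0.41, while the chemokine list is at 0.61; the cholesterol synthesis list is at 0.79 on plate 1 and 0.04 on plate 2.

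Cells with Plau and cells with Mmp12 were also set apart against the same 88 cells, which both comparisons share. Plaur had a log2 ratio of 1.27 in the 46 cells with Plau and 1.30 in the 18 cells with Mmp12. Sall1 had ratios of -1.77 and -1.88 and Atf3 of 2.38 and 2.81. Lgals3 had 0.95 in cells with Plau and 1.64 in cells with Mmp12, and Fgd2 had -1.42 and -2.17. Csf1 had 1.51 in cells with Plau and 0.99 in cells with Mmp12, where it was 1.48 on plate 1 and -1.63 on plate 2. The homeostatic list had medians of -0.49 and -0.53 and the G2/M list of -0.67 and -1.40. The cells overlap by 10, only 3 cells with Mmp12 lie on plate 2, and the differences between these values were not tested.

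The genes whose levels followed Plau most closely over cells, by the mean of Spearman's rho on the plates, were Ube2f (0.45), Psmb6 (0.41), Hivep3 (0.41), Cstb (0.38) and Eif1 (0.37). Ube2f, a conjugating enzyme for the ubiquitin-like protein Nedd8, was read in 30 of 54 expressing cells and 16 of 88 others. Those closest to Mmp12 were Lgals3 (0.40, with 0.49 and 0.30 on the plates), 5430435G22Rik (0.38), Gp49a (0.36), Lca5l (0.36) and Cstb (0.35). Cstb, an inhibitor of cathepsins, is in both groups of 5. These are the highest of 7184 weak correlations over 95 and 48 cells that share a pool and differ in depth.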

How the data were processed

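The authors deposited 1 table of raw read counts, whole numbers in 23429 rows and 143 columns of cells. Of these, 23337 are genes and 92 are ERCC spike-ins, which were left out of gene totals. Per the submitters' processing notes, the tools were HTSeq, Picard, STAR 2.5.3a and Trim Galore 0.4.3, on mm10; annotation and use of strand are not given in the sources used here, so genes with overlapping or near-identical copies, such as Eno1, Gapdh and Pisd-ps2, are uncertain. Column sums equalled the labelled totals in 143 of 143 cells, and 0 pairs of cells were identical. The age label gives day 7, although a library name holds the word adult. Nothing in the table shows how doublets were treated, and no cell was removed.

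Using Python 3.11.15, numpy 2.4.6, pandas 2.3.3, scipy 1.17.1 and matplotlib 3.10.9, counts were pooled over the cells of a group and scaled to 1000000 gene counts (CPM). Ratios are log2 of pooled CPM + 1 in expressing cells over cells with 0 counts of both genes. Genes needed a pooled CPM of 10 and a read in 10% of the compared cells. A difference was called when it passed 2-fold in the same direction on each plate. Intervals are exact 95% Poisson, binomial (Clopper-Pearson) or conditional binomial. Scripts were tested on simulated data.

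The members and the lists, 33 in all, were chosen with earlier results of these data known. Text names the 15 leading genes each way by the smaller plate ratio, measured members of the protease lists, leading members of other lists, markers of other cells read in over 20% of expressing cells and the 5 closest correlates; a few genes that meet this rule are not reported here, though they count in the lists. Genes read in 50% of cells, the G2/M-left-out setting, and the promoters other than that of Mmp12 were chosen after seeing the data. Of the list genes, 6 were found under older symbols and 1 was not matched. Promoters are RefSeq, GRCm38.p6. Alternatives changed the limit, grouping, scaling, pseudocount, filter, cells and depth.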

Additional observations from a re-analysis of the deposited data

How the results depend on the processing

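No paired analysis was possible because all cells belong to 1 group and no test was run. The counts of genes past 2-fold on each plate depended on the settings. The higher genes, 1.6% of those tested, became 214 (2.98%) with spike-in scaling and 38 (0.529%) with a pseudocount of 10. Where the filter changed, they were 342 of 12792 (2.67%) with no filter and 18 of 3086 (0.583%) at a pooled CPM of 50 or more. Among the 2199 genes read in 50% of cells they were 8 (0.364%). With fewer cells they were 259 (3.89%) with the cycling classes left out and 208 (2.97%) between the quartiles of detected genes. The 186 lower genes (2.59%) became 785 (10.96%) when the expressing cells were the 18 with Mmp12 at 10 CPM or more, 3 of them on plate 2. These 18 include the 10 cells with both genes. Spike-in scaling gave 100 (1.39%) and a pseudocount of 10 gave 64 (0.891%). With no filter the lower genes were 574 of 12792 (4.49%), and at a pooled CPM of 50 or more 19 of 3086 (0.616%). They were 328 (4.93%) with the cycling classes left out, 356 (5.09%) between the quartiles and 6 (0.273%) among genes read in 50% of cells. The cause was not tested, except that fewer or more genes enter where the filter changes.

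With spike-in scaling, which moved the median of all genes to 0.24, the median log2 ratio became 0.49 for the phagocytic state, -0.17 for homeostatic genes, 0.64 for glycolysis and 0.85 for chemokines. With the cycling classes left out it became 0.69 for glycolysis, 1.11 for chemokines and -0.24 for G2/M genes. That G2/M value rests on 5 genes that still passed the filter, since G2/M genes helped choose the cells left out. With only the G2/M class left out the median was 0.47 for glycolysis and 0.72 for chemokines, and at 250000 counts 0.35 and 0.84. Between the quartiles it was 0.88 for chemokines and -1.74 for G2/M genes, and in all cells with Mmp12 at 10 CPM or more 0.83 and -1.40. The chemokine median was 0.52 in all cells with Plau at 10 CPM or more and 0.58 at 1 count of either gene. It was 0.69 for mean CPM, 0.52 with a pseudocount of 10, 0.55 with no filter and 1.38 at a pooled CPM of 50. Without the 5 highest cells it was 0.70, and among genes read in 50% of cells 0.98. These medians kept their sign in every setting run, but other lists did not: the sign was kept in 7 of 15 settings for AP-1, ETS and NF-kB factors (from -0.32 to 0.40), 12 of 16 for ADAM proteases (from -0.30 to 0.14), 12 of 16 for S-phase genes (from -0.58 to 0.57), 14 of 16 for lipid handling (from -0.29 to 0.31), 13 of 14 for cholesterol synthesis (down to -0.29) and 15 of 16 for matrix ligands (down to -0.06), lysosomal genes (up to 0.21) and plasminogen receptors (down to -0.01). The MHC class II, interferon, oligodendrocyte and microglia identity lists also changed sign in some settings.

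Kifc3 reversed in all cells with Mmp12 at 10 CPM or more (-0.39). Ect2 (0) and Cenpf (0.023) lost their sign with the cycling classes left out. Gpnmb and Spp1 kept theirs in 14 of 16 settings each, with lowest values of -0.10 and -0.07. Over 16 alternatives the log2 ratio of Plaur ran from 1.19 to 1.52, of Atf3 from 2.02 to 2.81 and of Ccl3 from 1.60 to 2.48. That of Rhoc ran from 1.28 to 1.66, of Sall1 from -2.10 to -1.44 and of P2ry12 from -1.08 to -0.73. Some called genes fell below 2-fold: Furin ran from 0.54 to 1.92, 2900064A13Rik from 0.38 to 1.51 and Atp6v0d2 from 0.62 to 1.55. So did Cdk11b (0.83 to 1.51), Pisd-ps2 (-2.04 to -0.65) and Mthfs (-1.82 to -0.80). With a single pool, depth limits the sparse genes: a gene with 0 reads in the 54 expressing cells could still have reads in up to 5.56% of such cells by the limit of 3 counts and 6.60% by the exact interval.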

Other observations

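Lysosomal genes, which run high in these microglia, differed little between cells with and without Plau or Mmp12 reads when scaled to gene counts. Of 25 that passed the filter, 9 were higher on both plates and 9 lower, against 27.2% and 27.4% of all genes tested. The list had a median log2 ratio of -0.03. With spike-in scaling, which moved the median of all genes to 0.24, 18 were higher and 3 lower, with a median of 0.21. Gla, a lysosomal galactosidase, was highest, at 243 against 132.3 CPM and read in 46 of 54 against 45 of 88 cells. Ctss, a cathepsin of antigen processing, was lowest at 2073 against 2726 CPM. Of 15 genes of lipid handling, 7 were higher on both plates and 5 lower, and with the cycling classes left out 5 of 14 were higher and 8 lower. Soat1, which esterifies cholesterol, was at 1150 against 792 CPM, and Pltp, a phospholipid transfer protein read in 9 of 54 and 23 of 88 cells, was at 9.64 against 40.7 CPM.

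Of 18 genes of oxidative phosphorylation, 7 were higher on both plates and 2 lower, against 27.2% and 27.4% of all genes tested. Their median was 0.12, with 0.21 on plate 1 and 0.01 on plate 2. Under spike-in scaling, which moved the median of all genes to 0.24, the counts were 14 and 0 and the median 0.36. Cycs, cytochrome c, was at 98.4 against 56.8 CPM with log2 ratios of 0.75 and 0.86. Among class II antigen presentation genes Cd74 was read in 22 of 54 against 29 of 88 cells, with log2 ratios of 0.95 and 0.03 on the plates, and H2-Ab1 had 1.49 and -0.69. The interferon-induced gene Bst2 had 0.18.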
